A study of Mus musculus with 10 samples.

Results

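Fibin, Rit2, Arhgap15 and Pdlim3 are 4 of the 43629 genes listed in RNA-seq counts of C57BL/6 mouse dorsal telencephalon, the part of the forebrain that gives rise to the cortex, at E14.5. There were 10 samples. The controls, 5 in number, carried no Cre and were Dot1l-cKO f/+, and the 5 Dot1l-cKO samples were Cre/+ and Dot1l-cKO f/f. The controls thus had a conditional Dot1l allele too, while Cre in the Dot1l-cKO samples is a knock-in that acts in the telencephalon. Loss of Dot1l and effects of the Cre allele itself therefore cannot be told apart in these groups. The 4 genes were chosen by this same contrast. They were among the largest log2 fold changes of genes with an adjusted p-value under 0.05, a mean log2 CPM (counts scaled to a total of 1e+06) no lower than 1 and groups that did not overlap, so their own differences are described here without a test.

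DOT1L is a methyltransferase that modifies a lysine in the globular core of histone H3 along the bodies of transcribed genes. The products of the 4 genes belong to unrelated families. FIBIN, the fin bud initiation factor, is a secreted protein known from the zebrafish pectoral fin bud, where it lies downstream of retinoic acid and Wnt2b and upstream of Tbx5. RIT2, also called RIN, is a small Ras-like GTPase of neurons that binds calmodulin. ARHGAP15 is a GTPase-activating protein that switches off Rac and is known from blood cells and neurons. PDLIM3 joins a PDZ and a LIM domain and binds alpha-actinin at the Z-disc of muscle.

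Total counts ranged from 54202349 to 66556034 per sample. The 2 mitochondrial rRNA genes took 0.0471% to 0.492% of counts in replicates 2 and 3 of both groups, and 5.79% to 10.9% in the other 6 samples. In the normalised tables each column name begins with a number left unexplained by the labels, 57 for these 4 samples and 3 other numbers for the rest, so group differences are also given within those samples and within the rest. Dot1l itself had a mean of 37.3 ± 4.04 CPM among controls and 39.4 ± 11.7 CPM among Dot1l-cKO samples (SD, n = 5 each). Its log2 fold change was 0.08, its standard error (SE) 0.20 and its adjusted p 0.864 by the quasi-likelihood test of edgeR. Counts for a whole gene do not separate deleted from retained exons, so this value does not check the deletion. In bulk tissue, a change in the number of cells of a type and a change in RNA per cell cannot be told apart.

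The edgeR test compared 17039 genes. Of these, 5.67% were called higher and 1.44% lower in Dot1l-cKO, 7.11% in all, and 6.17% had every Dot1l-cKO sample above every control. All 4 genes passed the filter on low counts, and they had between 32 and 185 counts in each control. Since the rule used these calls and this separation, nothing is read from the 4 genes against those shares. The median log2 fold change over all genes tested was -0.01. By size of log2 fold change among the genes tested, Fibin was at rank 15, Rit2 at 17, Arhgap15 at 24 and Pdlim3 at 27. The conditions of the rule were met by 691 genes, 516 of them higher in Dot1l-cKO. Lama3, which encodes a laminin chain, stood between Rit2 and Arhgap15 in that order with a log2 fold change of 2.23, from 0.806 to 3.79 CPM, and is not one of the 4 genes. Pdlim3, just inside, had 2.19. The next genes outside were Dapk2 with 2.16, from 0.813 to 3.65 CPM, Crym with 2.07, from 11.6 to 48.7 CPM, and Itgbl1 with 2.06.

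Fibin (ENSMUSG00000074971) is annotated at 110360917 to 110363183 of chromosome 2 (GRCm38, minus strand). It has no intron in the annotation, as its 2267 exonic bases equal its span. Control replicates 1 to 5 had 39, 45, 117, 32 and 55 counts, or 0.784, 0.789, 1.75, 0.498 and 0.888 CPM. Dot1l-cKO replicates 1 to 5 had 260, 330, 253, 269 and 325 counts, or 4.91, 5.72, 4.43, 4.06 and 5.24 CPM. Control replicate 3 stood above the other controls, but still below every Dot1l-cKO sample. Control and Dot1l-cKO means were 0.942 ± 0.475 and 4.87 ± 0.655 CPM (SD, n = 5 each), a ratio of 5.17, with a log2 fold change of 2.36 (SE 0.29). The lowest Dot1l-cKO sample was 2.32 times the highest control. The spread relative to the mean was 50.4% in controls and 13.5% in Dot1l-cKO. The 4 samples of header number 57 gave a log2 difference of 2.06, and the remaining 6 gave 2.69.

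Rit2 (ENSMUSG00000057455) is annotated at 30973489 to 31317290 of chromosome 18 (GRCm38, minus strand). Controls had 112, 185, 101, 119 and 169 counts, or 2.25, 3.25, 1.51, 1.85 and 2.73 CPM. Dot1l-cKO samples had 848, 661, 584, 689 and 574 counts, or 16.0, 11.5, 10.2, 10.4 and 9.25 CPM. Dot1l-cKO replicate 1 was the highest by far, and no Dot1l-cKO sample came down to the control range. Control and Dot1l-cKO means were 2.32 ± 0.689 and 11.5 ± 2.66 CPM (SD, n = 5 each), a ratio of 4.95, with a log2 fold change of 2.31 (SE 0.23). The lowest Dot1l-cKO sample was 2.85 times the highest control. Within header number 57 the log2 difference was 2.27, against 2.34 in the 6 remaining samples, the closest such pair of values among the 4 genes.

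Arhgap15 (ENSMUSG00000049744) is annotated at 43748824 to 44395953 of chromosome 2 (GRCm38, plus strand). Its counts were 47, 35, 35, 55 and 59 in controls, or 0.945, 0.614, 0.524, 0.856 and 0.952 CPM. In Dot1l-cKO they were 198, 243, 189, 200 and 239, or 3.74, 4.21, 3.31, 3.02 and 3.85 CPM. The samples of each group lay close together, and Arhgap15 had the widest gap between the groups in relative terms, with a lowest Dot1l-cKO sample 3.17 times the highest control. Control and Dot1l-cKO means were 0.778 ± 0.197 and 3.63 ± 0.469 CPM (SD, n = 5 each), a ratio of 4.66, with a log2 fold change of 2.22 (SE 0.20). The 4 samples of header number 57, whose controls were the lowest of their group, gave a log2 difference of 2.65, and the remaining 6 gave 1.90.

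Pdlim3 (ENSMUSG00000031636) is annotated at 45885461 to 45919548 of chromosome 8 (GRCm38, plus strand). Controls had 38, 114, 77, 59 and 33 counts, or 0.764, 2.00, 1.15, 0.919 and 0.533 CPM. Dot1l-cKO samples had 274, 349, 251, 261 and 310 counts, or 5.17, 6.05, 4.39, 3.94 and 4.99 CPM. Relative to the mean, controls varied more than in the other 3 genes, with replicate 2 the highest, and the groups still did not overlap. Control and Dot1l-cKO means were 1.07 ± 0.565 and 4.91 ± 0.805 CPM (SD, n = 5 each), a ratio of 4.57, with a log2 fold change of 2.19 (SE 0.31). The lowest Dot1l-cKO sample was 1.97 times the highest control, the narrowest gap of the 4 genes. The 4 samples of header number 57 gave a log2 difference of 1.74 and the remaining 6 gave 2.64, the reverse of the order in Arhgap15.

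**Figure D1:**
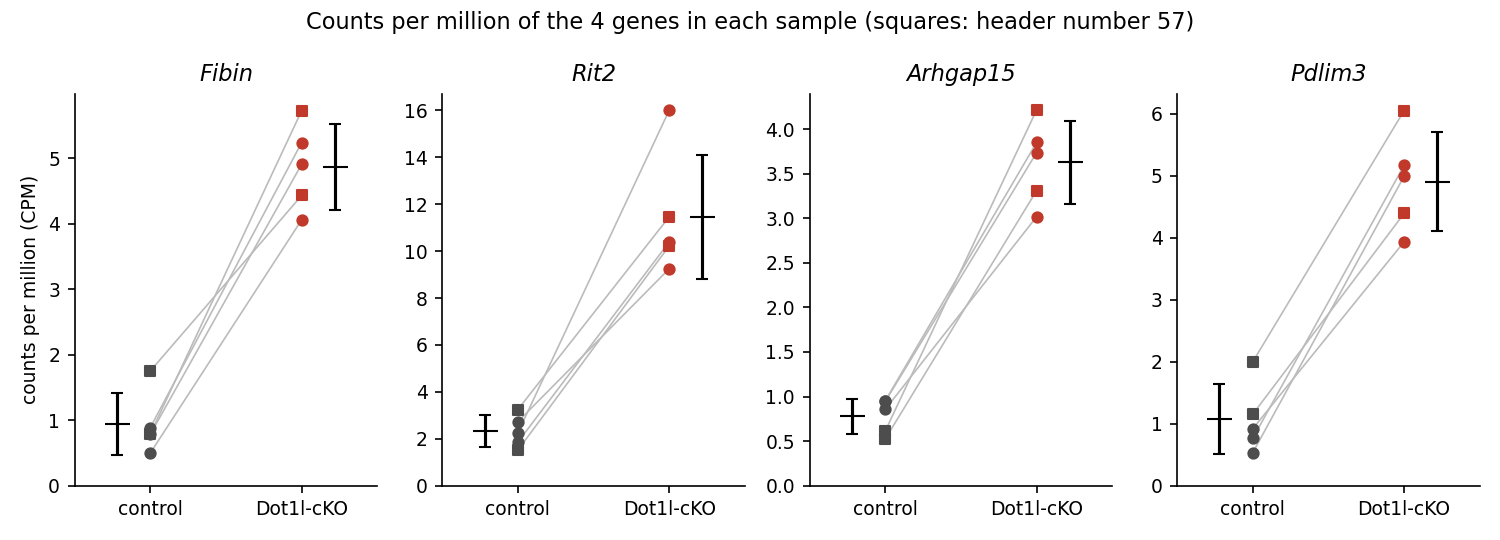
CPM of each gene (vertical axes, starting at 0) in the 5 control and 5 Dot1l-cKO samples, with squares for the samples of header number 57, circles for the others, gray lines joining samples with the same replicate number, and black bars for the mean ± SD. Every line rises in every panel, as the choice of genes with groups that do not overlap requires. The lowest Dot1l-cKO sample is 1.97 to 3.17 times the highest control.

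The regions before the starts are shown because all of the genes were higher in Dot1l-cKO, to set side by side what short words they hold. RefSeq promoter windows on GRCm38.p6 run from 250 bases before the start over 50 bases from the start on, and those used here belong to Fibin, Arhgap15 and Pdlim3. Of each first window, the bases before both the RefSeq and the GENCODE start are given, 5′ to 3′ on the strand of the gene. Capitals mark the TATA box TATAAA, the CAAT box CCAAT, the GC box GGGCGG, the homeodomain core TAATTA and the E-box CANNTG, each searched on both strands. The Fibin stretch is chr2:110363184-110363243 (minus strand), that of Arhgap15 is chr2:43748574-43748823 (plus strand) and that of Pdlim3 is chr8:45885237-45885460 (plus strand).
Fibin: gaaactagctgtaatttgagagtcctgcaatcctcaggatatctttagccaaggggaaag
Arhgap15: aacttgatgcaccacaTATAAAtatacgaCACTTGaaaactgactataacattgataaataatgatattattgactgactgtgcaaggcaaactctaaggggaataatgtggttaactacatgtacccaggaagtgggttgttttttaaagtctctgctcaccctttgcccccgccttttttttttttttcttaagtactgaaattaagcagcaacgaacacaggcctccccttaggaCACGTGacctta
Pdlim3: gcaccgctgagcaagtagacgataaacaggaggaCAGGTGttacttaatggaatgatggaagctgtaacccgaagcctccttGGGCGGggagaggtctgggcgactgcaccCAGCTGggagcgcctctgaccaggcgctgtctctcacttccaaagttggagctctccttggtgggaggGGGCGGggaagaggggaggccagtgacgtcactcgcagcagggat

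None of the 5 motifs was found in all 3 genes. The Fibin window of 300 bases held none of them. The first Arhgap15 window held TATAAA 234 bases before the start, and the CANNTG words CACTTG and CACGTG. A second Arhgap15 window, 38531 bases further on, held a single CAGCTG. The Pdlim3 window held GGGCGG at 2 places and the CANNTG words CAGGTG and CAGCTG. Among all 32851 windows of the table, 13.6% held TATAAA, 37.4% CCAAT, 35.7% GGGCGG, 5.29% TAATTA and 72.3% CANNTG. The windows also differed in composition. The first Arhgap15 window had 38.7% GC and 5 CpG, the Fibin window 56.3% and 11, and the Pdlim3 window 59.7% and 15, against medians of 52.7% and 7 over all windows.

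The 4 genes differed widely in length. Fibin spans 2267 bases and Pdlim3 34088, while Rit2 spans 343802 and Arhgap15 647130, against a median span of 20770 among the genes tested. Arhgap15 and Rit2 were longer than 99.2% and 97.4% of these genes, and Fibin was longer than 9.30%. Counts were taken over 2267 exonic bases in Fibin, 4496 in Rit2, 8818 in Arhgap15 and 5147 in Pdlim3, so levels are compared between genes only per kilobase of exon.

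Per kilobase of exon, the order of mean levels was Rit2, Fibin, Pdlim3 and Arhgap15 in both groups. In controls the levels were 0.516 ± 0.153, 0.416 ± 0.210, 0.209 ± 0.110 and 0.0883 ± 0.0224 CPM per kilobase (SD, n = 5). Ranges of neighbours in that order overlapped at each of the 3 steps. In Dot1l-cKO the levels were 2.55 ± 0.590, 2.15 ± 0.289, 0.954 ± 0.157 and 0.411 ± 0.0532 CPM per kilobase (SD, n = 5). Here Rit2 and Fibin still overlapped, while Fibin lay above Pdlim3 and Pdlim3 above Arhgap15 in every sample.

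**Figure D2:**
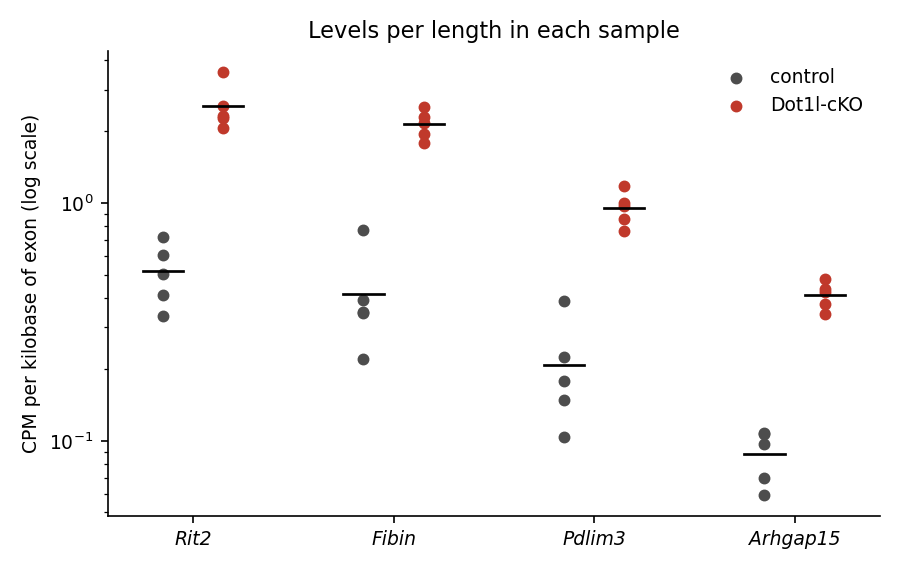
CPM per kilobase of exon of each gene (log scale) in the 5 control and 5 Dot1l-cKO samples, with a black line at each group mean. Rit2 and Fibin stand highest in both groups, and Dot1l-cKO Arhgap15, at 0.411 on average, reaches about the control level of Fibin, 0.416.

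Samples with the same replicate number can be compared as pairs. The log2 difference within pairs 1 to 5 was 2.60, 2.81, 1.32, 2.94 and 2.52 for Fibin, and 2.81, 1.81, 2.73, 2.47 and 1.75 for Rit2. It was 1.95, 2.71, 2.58, 1.78 and 1.98 for Arhgap15, and 2.71, 1.58, 1.90, 2.06 and 3.15 for Pdlim3. All differences were positive, which the choice of genes with groups that do not overlap had fixed in advance. No pair had the smallest difference in more than 1 gene. Pair 3 was smallest for Fibin, pair 5 for Rit2, pair 4 for Arhgap15 and pair 2 for Pdlim3. Among Dot1l-cKO samples, replicate 2 was the highest and replicate 4 the lowest for Fibin, Arhgap15 and Pdlim3. Rit2 ordered the samples differently, with replicate 1 the highest and replicate 5 the lowest. Replicate 2 was also the Dot1l-cKO sample with the least Dot1l, at 20.1 CPM. The most Dot1l, 51.7 CPM, was in replicate 5. Fibin and Arhgap15 there were below replicate 2 only, at 5.24 and 3.85 CPM, and Pdlim3 was below replicates 1 and 2, at 4.99 CPM. A relation of the 4 genes to the Dot1l counts was not tested.

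The genes whose deviations from the group means were most like those of a member, among those with a mean log2 CPM of 1 or more, were found by Pearson's r over the 10 samples, which share libraries and depth. They are the best of a search over all such genes, so a high r can arise without any link and was not tested. For Fibin they were Ggact (0.967), Il11ra1 (0.964) and Crip1 (0.948). For Rit2 they were Gm28268 (0.919), Rian (0.907) and Nalcn (0.90), a sodium leak channel of neurons. For Arhgap15 the closest were Kdm4c (0.954), a histone demethylase, and Plpp1 (0.93), a lipid phosphatase. For Pdlim3 they were Cdh20 (0.982), a cadherin, Ptgr2 (0.977) and Hopx (0.939), a homeodomain-only protein. No gene appeared for more than 1 member. Of these 12 genes, Nalcn and Hopx were called higher in Dot1l-cKO, with log2 fold changes of 0.88 (SE 0.17, edgeR adjusted p = 0.0098) and 1.10 (SE 0.23, edgeR adjusted p = 0.0153). Cdh20 had a log2 fold change of 0.57 (SE 0.16, edgeR adjusted p = 0.0571), and with the replicate number as a block its adjusted p was 0.0336.

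Most relatives of the 4 genes by family or known pathway were not called. Over 6 lists without the members, 126 of 133 genes were tested and 8 were called, all higher in Dot1l-cKO, or 6.35% against the 7.11% over all genes. The median log2 fold change was -0.01, as over all genes. The largest log2 fold change among the called relatives was 1.39, in Arhgap36, where the 4 genes, chosen for size, had 2.19 or more. None was called lower by edgeR, where 7 were lower at an unadjusted p under 0.05 and DESeq2 called 4 lower. No share over all genes is given here at an unadjusted p under 0.05 or by DESeq2. Over all genes DESeq2 called 2011, 1348 higher and 663 lower, but the number it tested is not given. Counts on these terms, here and below, therefore have no background share beside them. With the replicate number as a block, 14 of the 126 tested relatives were called, where the share over all genes was 9.41%. The 6 added by the block were Fgf10, higher by 0.87 (adjusted p = 0.0352), and 5 lower genes, among them Rara with -0.97 (adjusted p = 0.0068), Crabp2 with -0.62 (0.0481), Srgap2 with -0.49 (0.0282) and Arhgap19 with -0.27 (0.0448).

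Among PDZ-LIM proteins and alpha-actinins, the family and partners of PDLIM3, 2 of 10 genes were called. Over all genes 7.11% were called, and 6.17% were higher in Dot1l-cKO without overlap. Nothing about the family is read from so short a list. Pdlim4, also called RIL, had 13.7, 15.2, 16.1, 12.9 and 14.6 CPM in controls 1 to 5 and 22.6, 23.3, 21.9, 23.9 and 22.1 CPM in Dot1l-cKO. Its groups did not overlap, and it had a log2 fold change of 0.65 (SE 0.08, edgeR adjusted p = 0.000649). Pdlim5, or ENH, had means of 15.8 ± 4.71 and 28.8 ± 2.65 CPM (SD, n = 5 each), again without overlap, and a log2 fold change of 0.86 (SE 0.18, edgeR adjusted p = 0.0137). The log2 fold changes of the other family members, none of them called by edgeR, were 0.15 for Pdlim1 (adjusted p = 0.627), 0.42 for Pdlim2 (0.588), -0.03 for Pdlim7 (0.908) and -0.46 for Ldb3 (0.354).

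Around RIT2, 3 of 23 tested Ras-like GTPases and 1 of 12 tested effectors and binding partners were called, where the share over all genes was 7.11%. Nothing about these families is read from such small counts. Rit1, the closest relative of Rit2, had group means of 31.0 ± 2.12 and 38.4 ± 2.01 CPM (SD, n = 5 each), without overlap, and a log2 fold change of 0.31 (SE 0.07, edgeR adjusted p = 0.0199). The Rit1 call was lost without control replicate 2 (edgeR adjusted p = 0.054), without Dot1l-cKO replicate 4 (0.0512) and within the 6 samples outside header number 57 (0.0958). Diras2, a brain GTPase of the Di-Ras branch, went from 12.2 to 22.3 CPM, a log2 fold change of 0.87 (SE 0.18, edgeR adjusted p = 0.0147, and 0.0686 within the 6 samples outside header number 57). Gem, a GTPase that restrains voltage-gated calcium channels, went from 5.97 to 8.27 CPM, a log2 fold change of 0.47 (SE 0.11, edgeR adjusted p = 0.024). Its call was lost in 4 of 10 fits leaving out a single sample each, namely without control replicate 1 or 4 (0.0697 and 0.0681) and without Dot1l-cKO replicate 3 or 4 (0.0558 and 0.0501). It was lost within the 6 samples outside header number 57 too (0.0608).

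Around ARHGAP15, 2 of 57 tested RhoGAP genes were called, or 3.51% against 7.11% over all genes. With the replicate number as a block 4 were called, which added Arhgap19 and Srgap2, where the share over all genes was 9.41%. Arhgap36, known as an activator of Hedgehog signalling, had 0.563, 0.684, 0.659, 0.483 and 0.516 CPM in controls 1 to 5 and 1.68, 1.09, 1.80, 1.63 and 1.42 CPM in Dot1l-cKO. Its groups did not overlap, and it had a log2 fold change of 1.39 (SE 0.18, edgeR adjusted p = 0.00134). Arhgap20, a target of the GTPase Rap, went from 20.6 to 38.3 CPM with overlapping groups, a log2 fold change of 0.90 (SE 0.21, edgeR adjusted p = 0.0244). Its call was lost in 5 of 10 fits leaving out a single sample each, without control replicates 1, 2 or 4 (0.0515, 0.0572 and 0.0625) and without Dot1l-cKO replicates 1 or 5 (0.0607 and 0.0585). The relatives closest to Arhgap15 by family were not called, with log2 fold changes of 0.69 for Arhgap9 (edgeR adjusted p = 0.236), -0.12 for Arhgap12 (0.506) and 0.03 for Arhgap27 (0.969). Of 11 genes for Rac proteins and the p21-activated kinases that Rac switches on, edgeR called 0, where 4 had an unadjusted p under 0.05 and DESeq2 called 1. The list of the retinoic acid pathway with Wnt2b, Tbx4, Tbx5 and Fgf10, which surround FIBIN in the fin bud, held 16 genes. Tbx5, Cyp26a1 and Cyp26c1 did not pass the filter on low counts, so nothing is read from them. Of the 13 genes tested, edgeR called 0, where 3 had an unadjusted p under 0.05 and DESeq2 called 1. With the replicate number as a block, edgeR called 3 of these 13, the Fgf10, Rara and Crabp2 already given, against 9.41% over all genes.

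**Figure D3:**
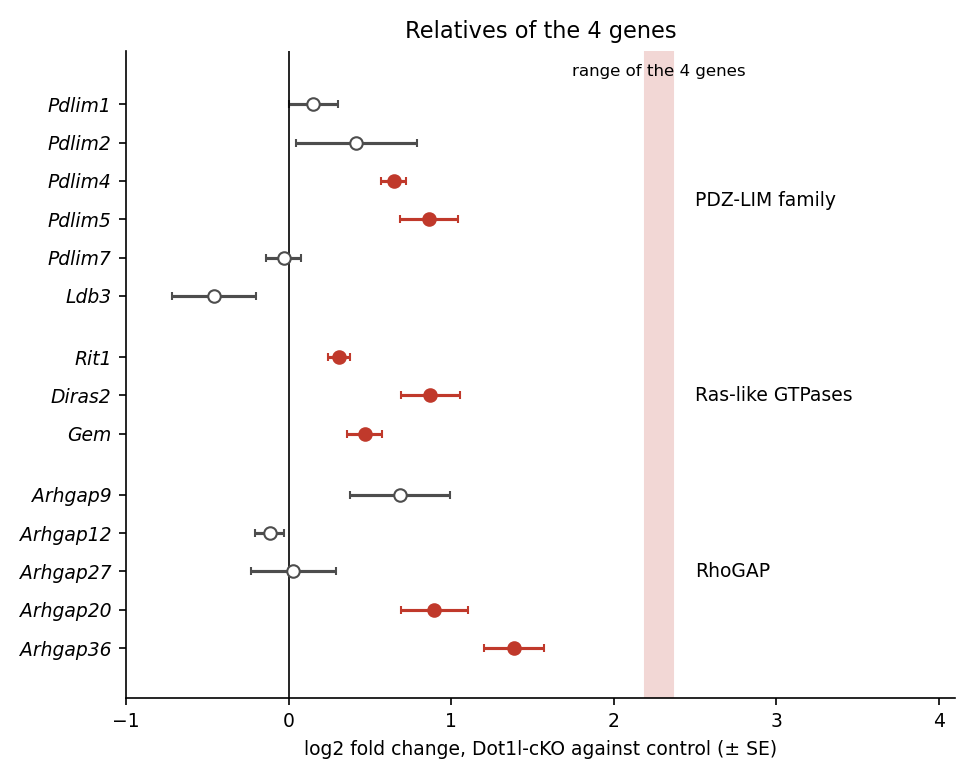
Log2 fold change of Dot1l-cKO against control (horizontal axis, ± SE) for named relatives of the 4 genes, filled red where edgeR called them and open where it did not, with a shaded band for the range of the 4 genes, 2.19 to 2.36. The called relatives lie between 0.31 and 1.39, to the left of the band.

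Neighbours on the chromosome were examined within 500 kb of each start, with any gene overlapping a member. Of 49 such genes, 21 were tested and 1 was called, or 4.76% against 7.11% over all genes. The median log2 fold change of those tested was 0.03. The called gene was Syt4, which encodes a synaptotagmin of neuronal vesicles and starts 130.1 kb upstream of the start of Rit2. Syt4 had 136, 78.7, 80.2, 107 and 154.1 CPM in controls 1 to 5 and 308, 255, 242, 261 and 210 CPM in Dot1l-cKO. The groups did not overlap, and the log2 fold change was 1.20 (SE 0.19, edgeR adjusted p = 0.00347). The other 7 tested neighbours of Rit2 had log2 fold changes from -0.36 (Gm26533) to 0.35 (B930094E09Rik), and none of them was called.

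Fibin had 3 tested neighbours, which were Ccdc34 with -0.10, Lin7c with 0.08 and Lgr4 with 0.23 on the log2 scale. These start 345.4, 472.3 and 445.5 kb from the start of Fibin. Closer by, Bbox1 at 48.6 kb had 2 counts summed over controls and 22 over Dot1l-cKO, too few to be tested. Of the 10 tested neighbours of Pdlim3, those nearest to its start were Ccdc110, with a log2 fold change of 0.60 (SE 0.32, edgeR adjusted p = 0.329), and 1700029J07Rik with 0.20 (SE 0.18, edgeR adjusted p = 0.58). The lowest neighbour value was -1.80 for Helt, a transcription factor gene of GABAergic precursors in the midbrain, with a wide error (SE 0.70, edgeR adjusted p = 0.168). None of the 3 genes listed around Arhgap15 had enough counts to be tested. One of them, Arhgap15os, is antisense to Arhgap15 and had 0.0198 and 0.0343 CPM on average in the groups, where the counts are stranded.

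**Figure D4:**
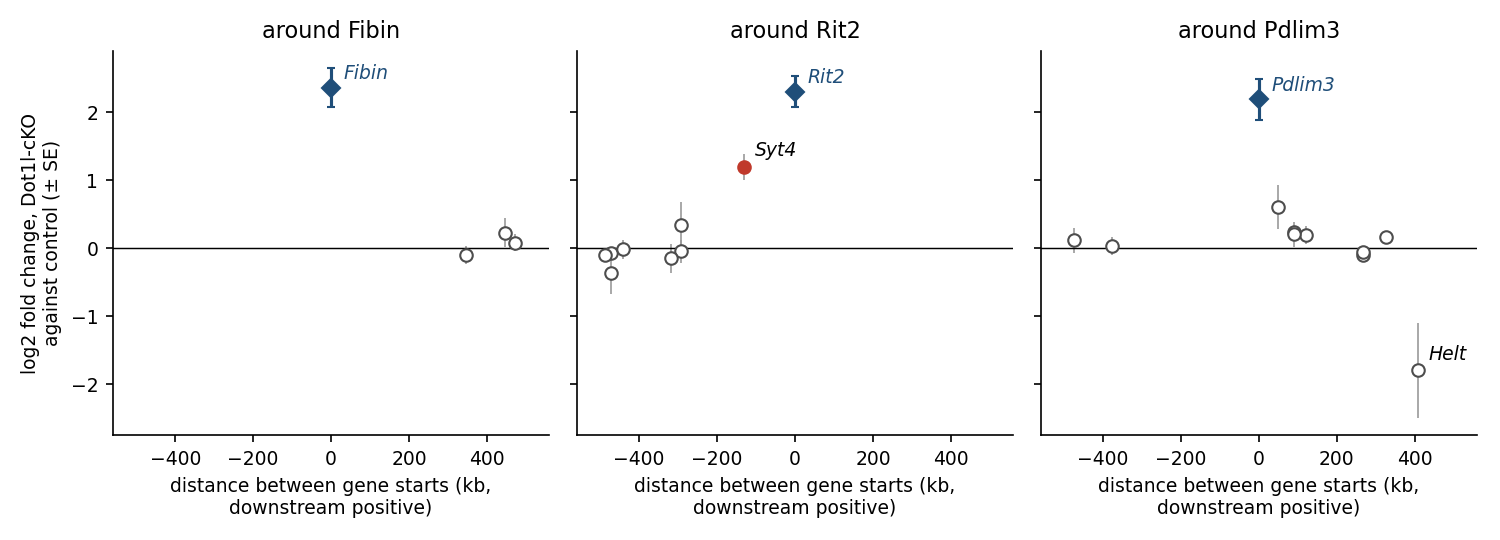
Log2 fold change of Dot1l-cKO against control (vertical axis, ± SE) of tested neighbours of Fibin, Rit2 and Pdlim3 by distance between gene starts in kb, with the gene itself as a blue diamond at 0 and the called neighbour in red. Syt4 at 1.20 is the called neighbour, and the 20 others lie between -1.80 and 0.60.

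Markers of cell types that the tissue could hold were summed per sample, since the 4 genes are known from several of them. No marker of any list was at 0 in all samples. Beside the edgeR calls in all marker lists, the shares over all genes were 5.67% called higher and 1.44% called lower. Microglial markers summed to 48.2 to 81.5 CPM in controls and 100 to 142 CPM in Dot1l-cKO, without overlap, and edgeR called 10 of 11 higher. The other leukocyte markers summed to 65.1 to 89.9 and 75.3 to 98.4 CPM, with 1 of 8 called higher by edgeR and 2 by DESeq2. At an unadjusted p under 0.05, 5 of them were higher and 0 lower, and their median log2 fold change was 0.59. Arhgap15 is known from blood cells, and its levels moved between the groups in the same direction as the microglial sum. Within Dot1l-cKO, Arhgap15 was highest in replicate 2, which had the lowest microglial sum at 100 CPM. The part of microglia or other leukocytes in the Arhgap15 difference was not tested. Cajal-Retzius markers also rose without overlap in their sums, from 427 to 650 CPM in controls to 678 to 1238 CPM in Dot1l-cKO, with 5 of 8 called higher. Their part in the 4 differences was not tested either.

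Markers of meningeal fibroblasts summed to 26.8 to 898 CPM in controls and 31.9 to 822 CPM in Dot1l-cKO. Their highest control value was in replicate 3, where Fibin had its highest control value, while in Dot1l-cKO Fibin was highest in replicate 2, where the fibroblast sum was 35.4 CPM. For this list edgeR and DESeq2 called 0 of 11 genes, and 0 had an unadjusted p under 0.05. The part of meningeal fibroblasts in the Fibin difference was not tested. Skeletal muscle markers, relevant to the muscle protein PDLIM3, summed to 3.27 to 54.2 CPM in controls, with the highest value again in replicate 3, and 4.17 to 7.03 CPM in Dot1l-cKO. Of these, 5 of 10 were tested and edgeR and DESeq2 called 0, with 1 lower at an unadjusted p under 0.05. Pericyte and smooth muscle markers summed to 104 to 174 and 90.6 to 201 CPM, with 0 of 10 called by edgeR or DESeq2 and 0 at an unadjusted p under 0.05. The part of muscle cells or pericytes in the Pdlim3 difference was not tested.

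Postmitotic neuron markers, relevant to the neuronal genes Rit2 and Syt4, summed to 3156 to 4807 CPM in controls and 3628 to 4438 CPM in Dot1l-cKO, with 1 of 8 called higher and a median log2 fold change of 0.06. The part of neurons in the Rit2 and Syt4 differences was not tested. GABAergic neuron markers summed to 85.4 to 429 CPM in controls and 7.44 to 136 CPM in Dot1l-cKO. Of these 10 genes, edgeR called 3 lower and DESeq2 4, and at an unadjusted p under 0.05, 8 were lower and 0 higher. Their median log2 fold change was -1.86. The part of GABAergic neurons in the 4 differences was not tested. Progenitor markers summed to 2100 to 2944 and 2546 to 2946 CPM, with 1 of 10 called higher and 1 lower by edgeR and 1 higher and 2 lower by DESeq2. Of the remaining lists, deep-layer and subplate neurons had 1 of 9 genes called higher and the diencephalon 1 of 2. For endothelial cells, choroid plexus and striatal neurons edgeR and DESeq2 called 0 of 9, 0 of 7 and 0 of 9, with 0, 0 and 1 at an unadjusted p under 0.05.

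**Figure D5:**
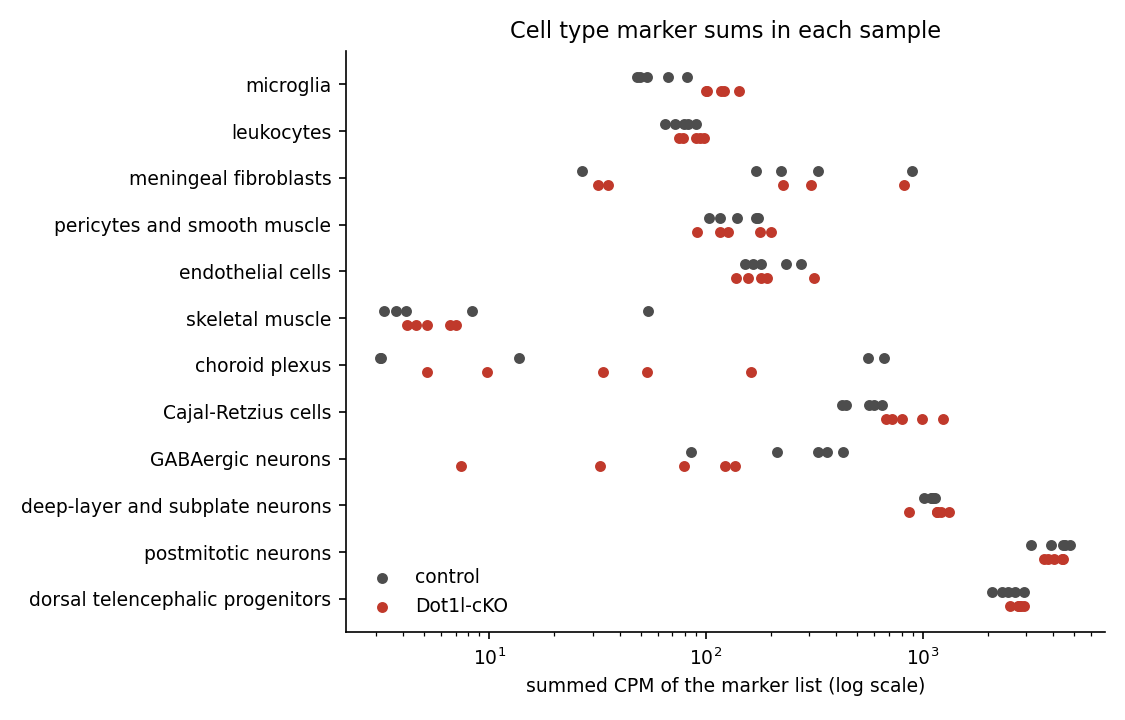
Summed CPM of each marker list (log scale) in the 5 control samples (gray) and 5 Dot1l-cKO samples (red). The groups separate for microglia and Cajal-Retzius cells and overlap for the other 10 lists drawn.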

How the data were processed

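Total RNA from E14.5 dorsal telencephalon was sequenced in 5 control and 5 Dot1l-cKO samples, labelled as biological replicates. Libraries were stranded and made from total RNA, per the labels. Per the submitters' processing notes and the study's methods, reads were trimmed (Trim Galore 0.2.8), mapped to mm10 (TopHat2 2.0.9) and assigned to genes (HTSeq 0.6.0). The deposited counts are whole reads per gene. The deposited normalised tables hold a signal, the same counts divided by a size factor per sample by the authors with DESeq2 1.6.1, and gave only the header number, 51, 57, 57, 90 and 154 for replicates 1 to 5 of both groups. Symbols matched 42462 of 43629 identifiers in a GENCODE annotation of GRCm38. Total counts, without molecular identifiers, give counting error only.

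Counts were filtered with filterByExpr, normalised with TMM and tested with edgeR 4.0.16 in R 4.3.3 (quasi-likelihood, no covariate, Benjamini-Hochberg adjusted p under 0.05). CPM use TMM library sizes; log2 CPM per sample use a prior count of 2. Standard errors are approximate. Named were the 4 genes, Dot1l, the genes next to the choosing rule, called relatives and closest paralogs, neighbours, and the 3 genes most alike per member. The 4 genes and all lists were chosen with earlier results of these data known. Deviations of same-numbered samples from their group means correlated at 0.229, 0.349, 0.145, 0.597 and 0.131 for replicates 1 to 5, all over 0.1, so the replicate number was also used as a block. Alternatives were DESeq2 1.42.0, its size factors in edgeR, other count filters, the replicate or header number as a block, Xist as a covariate, removal of mitochondrial genes and each sample left out. A fit of the 6 samples outside header number 57 was added after seeing the data. Protein sequences were not analysed here. Of the further genes to be named beside the 4 members, 3 are not reported here.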

Additional observations from a re-analysis of the deposited data

Results flagged for a closer look

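Of 58 groups of 5 samples examined for a sample far from the rest, 2 had one whose gap to its nearest neighbour exceeded 0.71 of the range of the group, where chance gives about 1 in 20. Dot1l in Dot1l-cKO replicate 2 was at 4.33 log2 CPM against a group median of 5.41, a gap of 0.717 of the range. This is the sample in which Fibin, Arhgap15 and Pdlim3 were highest. In replicate 5, with the most Dot1l of the Dot1l-cKO samples, Fibin and Arhgap15 were below replicate 2 only. A relation to the Dot1l counts was not tested. Pdlim5 in Dot1l-cKO replicate 4 was at 4.59 log2 CPM against a group median of 4.90, a gap of 0.878 of the range. In this sample Fibin, Arhgap15 and Pdlim3 had their lowest Dot1l-cKO values.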

How the results depend on the processing

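All alternatives kept the 4 genes higher in Dot1l-cKO, with log2 fold changes of 2.06 to 2.72 for Fibin, 2.16 to 2.46 for Rit2, 1.90 to 2.65 for Arhgap15 and 1.74 to 2.66 for Pdlim3. With a sample left out or within header numbers, this direction was fixed by the choice of genes with groups that do not overlap. The Arhgap15 value of 2.65 within header number 57 and of 1.90 in the other samples moved by more than the spread between replicates. Against 1212 called genes, 966 higher and 246 lower, DESeq2 called 2011 with 663 lower. The 6 samples outside header number 57, an alternative chosen after seeing the data, gave 745, with 590 higher and 155 lower. The replicate block and the header-number block gave 495 and 597 lower genes, and each called 14 relatives in place of 8. Leaving out each sample in turn gave 750 to 1357 called genes, 624 to 1076 higher and 126 to 343 lower. Without control replicates 1 and 4 the total was 750 and 779, with 624 and 643 higher and 126 and 136 lower. Lower genes numbered 134 without control replicate 2, and 149, 157 and 144 without Dot1l-cKO replicates 1, 3 and 4. Without a low-count filter, Rit1 and Gem were not called (edgeR adjusted p = 0.0513 and 0.0632), nor was Arhgap20 with Xist as a covariate (0.0556). The uncalled Arhgap27, 0.03 on the log2 scale, turned to -0.028 with the replicate block and -0.008 with the header-number block, and ran from -0.236 to 0.18 with a sample left out, negative without control replicate 1 or 4 or Dot1l-cKO replicate 5. The uncalled Pdlim7, -0.03, turned to 0.172 outside header number 57, and ran from -0.099 to 0.053 with a sample left out, positive without control replicate 3. The causes were not tested. Beside the 6 relatives counted above and Cdh20, the replicate block changed no call of a gene named here. The control values of the 4 genes rest on 32 to 185 counts per sample. Their spread relative to the mean ran from 25.35% for Arhgap15 to 52.6% for Pdlim3, and the part of counting error in it was not tested.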
